A study of Homo sapiens with 2 samples.

Results

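The genes described here encode the proteins of the mitochondrial ribosome. They were taken as every symbol in the deposited count tables that reads MRPL or MRPS, a number and an optional letter, with pseudogenes and antisense genes left out. That rule found 78 of 43424 symbols, 49 of them MRPL and 29 MRPS, and 75 were measured, meaning that they had at least 30 counts over both libraries. The study grew Hep3B cells, a human hepatocellular carcinoma line, and asked whether an extract of the plant Glehnia littoralis (GLE) acts on them, with apoptosis as its interest. One group was the DMSO control and the other the cells given GLE. Both are labelled wild type, and 1 library of each was sequenced from 500 ng of total RNA. The labels give a viability assay of 24 h at up to 500 µg/mL but state neither the GLE dose nor the exposure of the cells that were sequenced.

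The mitochondrial ribosome, or mitoribosome, sits at the inner mitochondrial membrane and makes the few proteins that the mitochondrial genome encodes, all of them subunits of the oxidative phosphorylation complexes. Its ribosomal RNAs come from the mitochondrial genome, whereas every protein is encoded in the nucleus, made in the cytosol and imported. Some of these proteins descend from bacterial ribosomal proteins and others were added during the evolution of mitochondria. Liver cells depend on them for respiration, and a few have been described in cell death as well.

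With 1 library per group no test between conditions was possible, and each value describes these libraries alone. A ratio is GLE over DMSO of counts scaled to the effective library size, and its range in brackets is a 95% Clopper-Pearson interval that covers counting error only. The reads carried no molecular identifiers and are therefore not independent molecules, which can make the true counting error larger. In bulk RNA, fewer cells that express a gene and less RNA per cell cannot be told apart. The DMSO library held 5618328 counts and the GLE library 3636351, and a count was present for 16505 and 16539 genes. Albumin and the hepatoma antigen AFP were well counted, so the liver label held, although 7 of 8 hepatocyte and hepatoma markers lay below a ratio of 1. Among the 16 markers of fibroblasts, leukocytes and endothelium, lysozyme had 2711 and 1540 counts. The other 15 summed to 110 and 83 counts, with 5 at 0 in both libraries. The 6 fibroblast markers summed to 36 and 69 counts (ratio 3.13, 2.06 to 4.83), with COL1A1 at 4 and 29. PECAM1 of endothelium had 36 and 1 counts and CD14 of leukocytes 37 and 9. Their part in the members' ratios was not tested.

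Short stretches from the promoters of members among the 8 highest and the 8 lowest are given first, because the promoters are where these genes resemble one another. The promoter windows are RefSeq's (GRCh38.p14), from 250 bases before to 50 after each annotated start, and 70 of the 78 members had one. Capitals mark the letters of a motif known to bind YY1 or the ETS factors, activators of many housekeeping genes, or the heat shock factors. Each stretch reads 5′ to 3′ on the gene's own strand, so a motif on the other strand appears as its reverse complement. The YY1 letters AAGATGGC stood in MRPS27 (chr5:72320206-72320235, minus strand), MRPL46 (chr15:88467362-88467391, minus), MRPS7 (chr17:75261887-75261916, plus), MRPS30 (chr5:44808949-44808978, plus) and MRPL32 (chr7:42932143-42932172, plus). The first 3 were lower and the other two higher in the GLE library.
MRPS27: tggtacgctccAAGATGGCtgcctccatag
MRPL46: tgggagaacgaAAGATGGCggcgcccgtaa
MRPS7: cgtggccagccAAGATGGCtgcccccgcag
MRPS30: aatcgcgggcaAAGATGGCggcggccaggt
MRPL32: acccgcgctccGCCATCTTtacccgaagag

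The ETS letters CCGGAAG stood in MRPS34 (chr16:1773135-1773164, minus strand), MRPS12 (chr19:38930928-38930957, plus), MRPS22 (chr3:139343988-139344017, plus), MRPS23 (chr17:57850040-57850069, minus) and MRPL33 (chr2:27771700-27771729, plus). The first pair was lower and the rest higher in the GLE library, so here too the same letters stood in members on both sides. MRPL18 has the ETS letters at one annotated start (chr6:159790430-159790459, plus) and, 15 bases after the start of another, the heat shock element letters GAANNTTC (chr6:159789815-159789844, plus). The heat shock letters were searched after the values had been seen.
MRPS34: tcttccggtgaCTTCCGGccggaccgctga
MRPS12: acggatagcgcCCGGAAGaggctagaagct
MRPS22: cctcccaaccaCTTCCGGcgcaagtggctt
MRPS23: tggagcagccgCTTCCGGttccggtagcag
MRPL33: cgggccgtgccCCGGAAGcagttgttgttg
MRPL18, ETS: gggacttgctaCTTCCGGgtcggtggcgtc
MRPL18, heat shock: gggaagaggttGAACCTTCgcctcaaacga

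ETS letters on either strand were found in 30 of the 70 members (42.9%) against 16.5% of the 15843 coding genes with a window. YY1 letters were found in 21 of the 70, against 739 of the 15843 (4.66%). At least one of the motifs stood in 43 members and both in 8. The YY1 letters lay close to the start, at a median distance of 19 bases. In 16 of the 21 members the copy nearest to the start lay at or after it, and in 17 it read on the gene's own strand, where AAGATGGC holds an ATG. The letters of NRF1 (CGCATGCG), an activator of nuclear genes for mitochondria, stood in 3 members (4.29%) against 3.28%. They occurred at 2 places in the MRPL17 window. Matches of different motifs shared bases in 1 member, MRPL48 (ETS and heat shock letters). A match describes these letters only.

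Members with a motif did not lie on one side. Of 30 measured members with ETS letters, 7 had an interval above 1 and 8 below, with a median log2 ratio of -0.09 and ratios from 0.612 to 2.05. Of all 2102 measured genes with these letters 31.0% lay above and 24.6% below. Of 20 with YY1 letters, 8 had an interval above 1 and 8 below, with a median of -0.05 and ratios from 0.469 to 1.87. Of all 613 such genes 32.5% lay above and 23.8% below. The medians over all such genes were 0.03 for ETS and 0.06 for YY1 letters. Heat shock letters stood in 6 members (8.57%, against 7.38% of coding genes), namely MRPL18, MRPL22, MRPL45, MRPL48, MRPL51 and MRPS35. Their ratios ran from 1.07 to 2.03, and 5 of the 6 intervals lay above 1, a description of few genes, and 4 did with the GC trend removed or with scaling by total counts. Of all 565 measured genes with these letters 27.4% did. The letters TGATGNAA of a C/EBP-ATF element were searched as well. They stood in 1 member, MRPL55 (1.43%, against 3.60% of coding genes), whose interval included 1 (0.953, 0.835 to 1.09). Neither this element nor the heat shock letters were among the motifs planned.

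As a set, the mitoribosomal protein genes were at about the same level in both libraries. Whether their summed ratio lay above or below 1 depended on the scaling. Their summed counts were 33002 in the DMSO library and 20324 in the GLE library, a ratio of 1.01 (0.989 to 1.02). They took 0.587% of all DMSO counts (0.581 to 0.594) and 0.559% of all GLE counts (0.551 to 0.567), shares that are of total counts, where the ratio uses effective library sizes. Across the scalings tried the summed ratio ran from 0.952 to 1.03. The median log2 ratio of the 75 measured members was -0.04, the same as for all 11068 measured genes. Their spread was smaller, with a middle range between the quartiles of -0.31 to 0.29 against -0.50 to 0.43 for all genes and -0.43 to 0.39 for the 8384 genes with at least 100 counts, a minimum that all 75 met.

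Large differences were few. At least 2-fold higher were 3 members, MRPL39, MRPS22 and MRPL18, and at least 2-fold lower was 1, MRPS27, where 9.54% and 10.5% of all measured genes passed. Among genes with at least 100 counts the background was 7.31% higher and 6.91% lower. At 1.5-fold, 10 members were higher (13.3%) and 9 lower (12.0%), against 19.3% and 21.9% of all measured genes, or 17.0% and 18.1% of those with at least 100 counts. The shares of members past either fold were below the background in both directions, a difference that was not tested.

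Many smaller differences exceeded counting error. For 26 members the interval was above 1, for 20 it was below, and for 29 it included 1. Over all measured genes 27.7% lay above and 30.1% below, so the members' 34.7% and 26.7% were near the background. With scaling by total counts the split was 20 above and 30 below, since that scaling moves the median of all genes from -0.04 to -0.12 and the background to 23.9% above and 34.4% below. It ends 6 calls (MRPL4, MRPL37, MRPL42, MRPL45, MRPS5 and MRPS18C). Removal of a GC trend, described further on, ends 8 (MRPL1, MRPL38, MRPL41, MRPL42, MRPS15, MRPS18A, MRPS18C and MRPS35). The 26 members with an interval above 1 held 32.8% of all member counts in the DMSO library and 43.7% in the GLE library, and the 20 below held 31.0% and 21.8%.

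**Figure D1:**
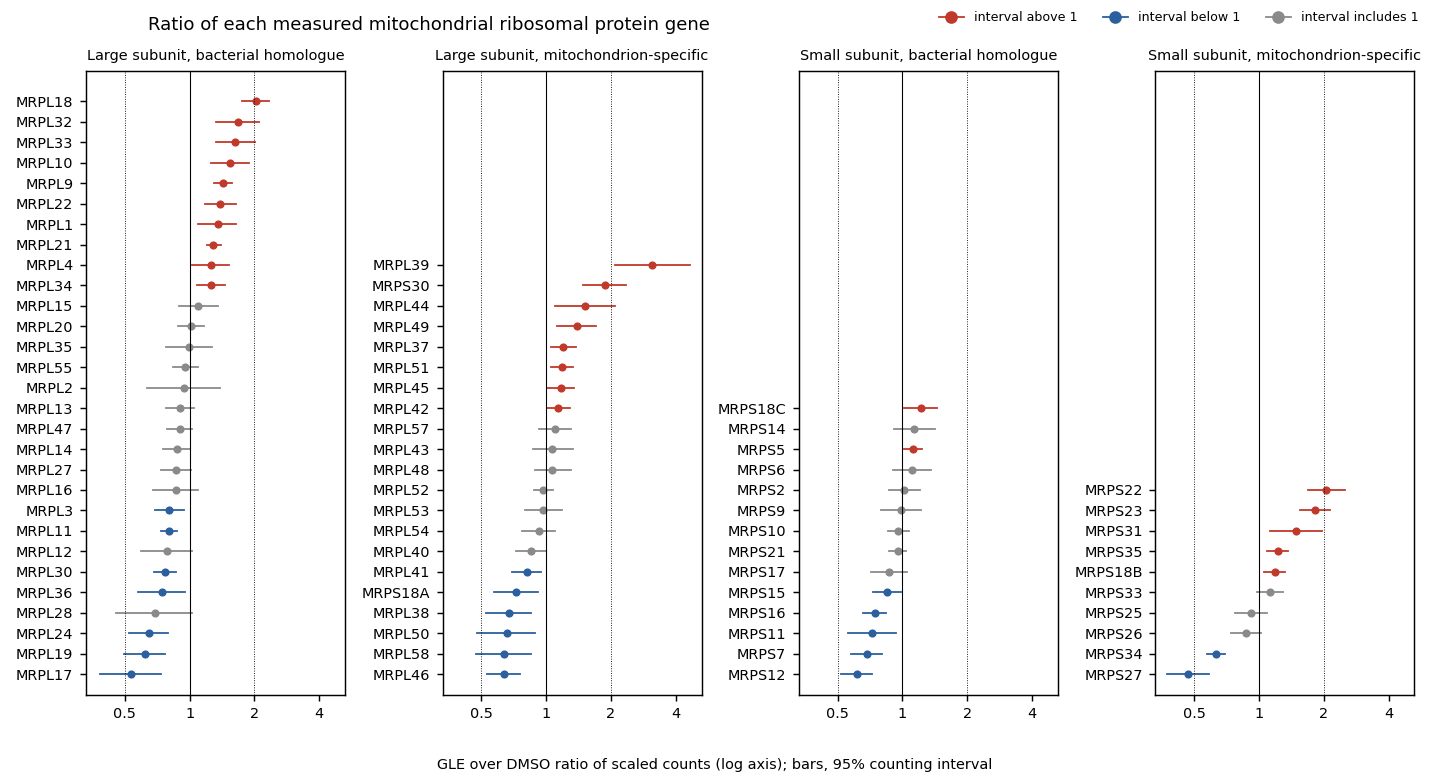
Ratio of GLE over DMSO for each of the 75 measured members except MRPS36, in panels by subunit and origin, on a log axis with dotted lines at 2-fold. Bars are 95% counting intervals, red where they lie above 1, blue below 1 and grey where they include it. Each panel holds members on both sides, from MRPS27 at 0.469 to MRPL39 at 3.11.

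The level of the members varied far more between genes than between libraries. CPM, counts scaled per 1e6 of effective library size, ran in the DMSO library from 7.10 (MRPL39) through a median of 58.3 to 272 (MRPS34), and in the GLE library from 10.2 (MRPL28) through 58.0 to 334 (MRPL21). The kit reads near the 3′ end of a transcript, so these counts do not grow with its length, and their order is an order of counted 3′ ends. Most members were well expressed: 67 of 75 in the DMSO library and 66 in the GLE library lay above the median of all measured genes (25.8 and 25.7 CPM). Across the 75 genes the log2 CPM of the libraries had a Pearson r of 0.89 and the CPM a Spearman rho of 0.89, a description over genes, which are not independent replicates.

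The most counted members in the DMSO library were MRPS34, MRPL11, MRPL21, MRPS21 and MRPS5, which held 20.8% of member counts. MRPL11, the uL11 protein at the base of the stalk, had 1520 and 746 counts (263 and 211 CPM), a ratio of 0.802 (0.734 to 0.876). MRPL21 had 1493 and 1181 counts (258 and 334 CPM), a ratio of 1.29 (1.20 to 1.40). Both moved by little, but in opposite directions and with intervals that left 1 out. MRPS21 had 1212 and 704 counts, a ratio of 0.949 whose interval included 1 (0.864 to 1.04). MRPS5 had 1072 and 735 counts, a ratio of 1.12 (1.02 to 1.23). In the GLE library MRPL21 was the most counted, followed by MRPL9, MRPL11, MRPS5 and MRPS21, so 4 of the 5 were shared.

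**Figure D2:**
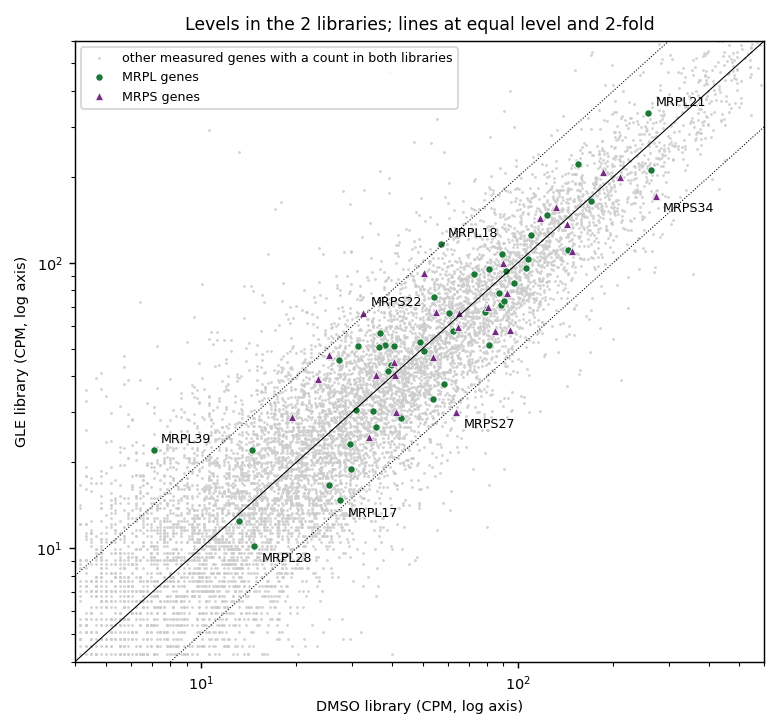
Level of each member in the DMSO library (x) and the GLE library (y), in CPM on log axes, with other measured genes in grey and lines at equal level and 2-fold. MRPL39, MRPS22 and MRPL18 lie past the upper 2-fold line and MRPS27 past the lower, and MRPL39 is the least counted measured member of the DMSO library.

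The large subunit holds the peptidyl transferase centre and the exit tunnel. Of its 51 member genes (MRPS30 and MRPS18A among them, whose proteins sit in the large subunit despite their names) 50 were measured, with a median log2 ratio of -0.04. Their intervals lay above 1 for 18 (36.0%), below 1 for 13 (26.0%) and included 1 for 19. The shares over all measured genes were 27.7% above and 30.1% below. Summed, the large subunit members gave a ratio of 1.04 (1.01 to 1.06). The 29 measured members with a bacterial homologue had a median of -0.07, with 10 above (34.5%) and 7 below (24.1%). The 21 specific to mitochondria had 0.10, with 8 above (38.1%) and 6 below (28.6%).

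MRPL39, a mitochondrion-specific protein of the large subunit encoded on chromosome 21 (25585656 to 25607859, GRCh38), had the highest ratio of all members. It had 41 counts in the DMSO library and 78 in the GLE library (7.10 and 22.1 CPM), which made it 3.11-fold higher (2.10 to 4.65). Its 119 counts in total were the fewest of any measured member, which the wide interval shows. MRPL18, on chromosome 6 (159789812 to 159798429), belongs to the family that binds 5S ribosomal RNA and sits in the central protuberance, and a cytosolic form made under heat stress has been described. It had 330 and 409 counts (57.1 and 116 CPM), 2.03-fold higher (1.75 to 2.35). Counts per gene do not tell its forms apart.

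MRPS30, known as mL65 and earlier as programmed cell death protein PDCD9, had 147 and 168 counts (25.4 and 47.5 CPM), 1.87-fold higher (1.49 to 2.35). MRPL32, which a protease of the inner membrane must trim before it enters the ribosome, had 158 and 161 counts, 1.67-fold higher (1.33 to 2.09). MRPL33 had 180 counts in each library, which after scaling for the shallower GLE library was a ratio of 1.63 (1.32 to 2.02). These 3 genes thus had about as many counts in the GLE library as in the deeper DMSO library. MRPL9, a protein at the base of the L1 stalk, had 897 and 785 counts, 1.43-fold higher (1.30 to 1.58), with a narrow interval because it was well counted.

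On the lower side of the large subunit, MRPL17 had 159 and 52 counts (27.5 and 14.7 CPM), 1.87-fold lower (1.36 to 2.61). MRPL46, a Nudix-fold protein of the central protuberance, had 467 and 182 counts, 1.57-fold lower (1.32 to 1.87). MRPL19 had 311 and 118 counts, 1.61-fold lower (1.30 to 2.01). All 3 lay below 1 by more than counting error. MRPL24, at the tunnel exit, had 337 and 133 counts, 1.55-fold lower (1.26 to 1.91). MRPL58, also called ICT1, is a peptidyl-tRNA hydrolase built into the ribosome that frees stalled chains. It had 172 and 67 counts, 1.57-fold lower (1.18 to 2.12).

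Within named regions of the large subunit the members diverged. In the stalk, which recruits translation factors, MRPL10 had 212 and 200 counts, 1.54-fold higher (1.26 to 1.88), while MRPL12, which it anchors and which also binds the mitochondrial RNA polymerase, had 171 and 82, a ratio of 0.784 whose interval included 1 (0.595 to 1.03). MRPL12 shares 68.2% of its exonic bases with another gene on its strand, the largest share of any member. With MRPL11 the stalk had 1 interval above 1 and 1 below. In the central protuberance only MRPL18 of 6 members lay above 1, MRPL46 and MRPL38 (0.671, 0.527 to 0.849, but 0.815, 0.640 to 1.03 with the GC trend removed) lay below, and MRPL27, MRPL40 and MRPL48 had intervals that included 1. At the tunnel exit 5 of 6 were measured. MRPL44 (1.52, 1.10 to 2.09), MRPL22 (1.39, 1.18 to 1.64) and MRPL45 (1.17, 1.01 to 1.35), the last of which ties the ribosome to the membrane, lay above 1 and MRPL24 below. MRPL41, a mitochondrion-specific protein described as a partner of BCL2, had 521 and 259 counts, a ratio of 0.812 (0.697 to 0.945). Its transcripts have 71.9% GC, and with the GC trend removed (below) the ratio was 1.13 (0.967 to 1.31), so its direction depends on that choice.

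The small subunit binds the messenger RNA and decodes it. Of its 26 member genes 24 were measured, with a median log2 ratio of -0.04. Their intervals lay above 1 for 7 (29.2%), below for 7 (29.2%) and included 1 for 10. The shares over all measured genes were 27.7% above and 30.1% below. The summed ratio of the small subunit was 0.952 (0.925 to 0.980). Its share of the counts of both subunits was 38.8% in the DMSO library (38.2 to 39.3) and 36.8% in the GLE library (36.1 to 37.4). MRPS34, the most counted member of the DMSO library, is a mitochondrion-specific protein needed for a stable small subunit. It had 1569 and 609 counts (272 and 172 CPM), 1.58-fold lower (1.43 to 1.73). Without it the summed ratio of the small subunit was 0.997 (0.967 to 1.03). The interval of that sum included 1, so the lower sum of the whole subunit depended on this gene. The subunit's bacterial homologues, which do not include MRPS34, had a summed ratio of 0.919 (0.885 to 0.955). Its mitochondrion-specific members, MRPS34 among them, had 0.997 (0.955 to 1.04).

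Members of the small subunit with a bacterial homologue spread less than those specific to mitochondria (SD over genes of the log2 ratio 0.30 and 0.65), a difference that was not tested. The 14 measured homologues had a median of -0.07, with 2 intervals above 1 (14.3%), 5 below (35.7%) and 7 that included 1. The shares over all measured genes were 27.7% above and 30.1% below. The homologues had a summed ratio of 0.919 (0.885 to 0.955), and none was past 1.5-fold higher. MRPS12, the uS12 protein at the decoding centre, had 547 and 205 counts (94.7 and 58.0 CPM), 1.63-fold lower (1.39 to 1.93). MRPS7 had 488 and 204 counts, 1.46-fold lower (1.24 to 1.73). The highest homologue was MRPS18C at 1.22.

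The 10 mitochondrion-specific members had a median of 0.21, with 5 of the 10 intervals above 1 and 2 below. Of all measured genes, 27.7% lay above 1 and 30.1% below. The summed ratio of these 10 members was 0.997, with an interval that included 1 (0.955 to 1.04). MRPS22 had 188 and 236 counts (32.5 and 66.7 CPM), 2.05-fold higher (1.69 to 2.50). MRPS23 had 293 and 326 counts (50.7 and 92.2 CPM), 1.82-fold higher (1.55 to 2.14). These were the only members of the small subunit at least 1.5-fold higher. MRPS27, on chromosome 5 (72219403 to 72320240), is a pentatricopeptide repeat protein that binds RNA, and it was the lowest of all members. It had 369 counts in the DMSO library (63.9 CPM) and 106 in the GLE library, 2.13-fold lower (1.71 to 2.67). MRPS27 and MRPS22 thus lay past 2-fold on opposite sides of 1 although their proteins belong to the same subunit and class.

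The 3 MRPS18 paralogues descend from 1 bacterial gene and each takes its own place in the ribosome. Only MRPS18C was grouped here with the bacterial homologues. Despite that descent, MRPS18A and MRPS18B were grouped with the mitochondrion-specific members. MRPS18A, in the large subunit, had 238 and 106 counts, a ratio of 0.728 (0.573 to 0.919). MRPS18B had 765 and 555 counts, a ratio of 1.19 (1.06 to 1.32). MRPS18C had 318 and 237 counts, a ratio of 1.22 (1.02 to 1.45). The large subunit paralogue lay below 1 and the small subunit paralogues above, all within 1.5-fold. With the GC trend removed the intervals of MRPS18A (0.804, 0.633 to 1.01) and MRPS18C (1.12, 0.941 to 1.33) included 1. MRPS18A shares 47.0% of its exonic bases with a gene on the other strand and MRPS18C 40.2%, so their counts are uncertain unless the counting used strand, which no source used here states.

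MRPS36 carries a member's symbol but is listed by RefSeq as KGD4, a component of the 2-oxoglutarate dehydrogenase complex. It had 135 and 138 counts (23.4 and 39.0 CPM), 1.67-fold higher (1.31 to 2.13). Without it the 74 measured members had the same median of -0.04, with 25 intervals above 1 and 20 below.

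Of the symbols, 3 were not measured. MRPL23 and MRPS24 had 0 counts in both libraries and MRPS28 had 0 and 1. A count of 0 allows up to 3 counts, or 0.519 CPM in the DMSO and 0.848 CPM in the GLE library. These limits are far below the least counted measured member. The readthrough transcripts URGCP-MRPS24 and TPD52-MRPS28, which overlap 2 of these genes, also had 0 counts, and 23.2% of MRPS24 and 35.8% of MRPS28 exonic bases are shared with other genes on the same strand. For MRPL23 the share was 2.86%, on the other strand. How the counting treated shared bases is not stated in any source used here, so a count of 0 does not show that these genes were silent. In all, 26 members share at least 10% of their exonic bases with another gene, among them MRPL9 (38.5%), MRPL38 (41.1%), MRPL33 (21.1%), MRPS12 (16.3%), MRPL44 (12.9%), MRPL46 (11.3%) and MRPS7 (10.8%) of those named above. The 51 measured members that do not had a median of -0.04, with 18 intervals above 1 and 13 below, and held all 4 members past 2-fold.

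Ratios of the members moved with the GC content of their transcripts, as those of other genes did. GC was the median over a gene's whole coding transcripts. The kit reads near the 3′ end, so the GC of the sequenced fragments may differ. Spearman's rho between log2 ratio and GC was -0.33 over the 75 members and -0.19 over 7979 genes with at least 100 counts, as a description over genes of the same pair of libraries. The 8 members with the highest lower bound had a median GC of 45.0% and the 8 with the lowest upper bound 51.8%, against 50.4% for all members. With a smooth GC trend over all genes removed, a step added after the data were seen, MRPL39 was 2.90-fold, MRPL18 2.06-fold and MRPS22 1.98-fold higher, and MRPS27 was 2.15-fold lower. MRPS34, with 64.7% GC, came to 1.29-fold lower. Members at least 1.5-fold lower fell from 9 to 5 and those higher went from 10 to 12. Whether GC itself acts on the ratios was not tested.

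**Figure D3:**
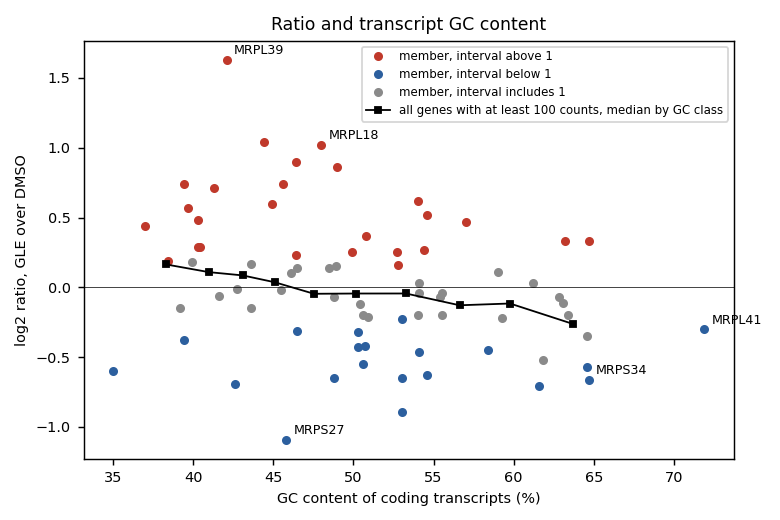
Log2 ratio of each measured member (y) against the GC content of its coding transcripts in percent (x), coloured by counting interval, with the median of all genes with at least 100 counts in 10 classes of GC with equal numbers of genes in black. The black line goes from 0.16 in the lowest class to -0.26 in the highest, and members scatter on both sides of it.

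Many members start close to a coding neighbour on the opposite strand. Whether such pairs share a promoter was not tested. In GENCODE release 29, 29 of the 78 members (37.2%) had a coding neighbour on the opposite strand with a start within 1000 bases, against 2585 of 19907 coding genes (13.0%). MRPL46 and MRPS11 are neighbours of each other with starts 34 bases apart, and both were lower, at ratios of 0.637 and 0.725 (0.557 to 0.938). MRPL18 lies 63 bases from TCP1, a subunit of the cytosolic chaperonin, which had 1635 and 1775 counts, a ratio of 1.77 (1.66 to 1.90). MRPS12 starts close to SARS2, the mitochondrial seryl-tRNA synthetase, at 0.671 (0.540 to 0.830). In these 3 pairs both genes lay on the same side of 1.

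Other pairs did not move together. MRPS27 was lower while PTCD2, 279 bases away, was 1.93-fold higher (1.13 to 3.31) from only 28 and 33 counts. MRPS18B was at 1.19 while PPP1R10 had 823 and 131 counts, a ratio of 0.260 (0.215 to 0.313). MRPL47 was at 0.898 with an interval that included 1 (0.784 to 1.03). Its neighbour NDUFB5, a complex I subunit 36 bases away, was 2.01-fold higher (1.70 to 2.38). Of 22 pairs with both genes measured, 13 lay on the same side of 1 (59.1%), against 393 of 746 other such pairs (52.7%). Spearman's rho was 0.28 over the 22 pairs and 0.10 over the others, both as descriptions.

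**Figure D4:**
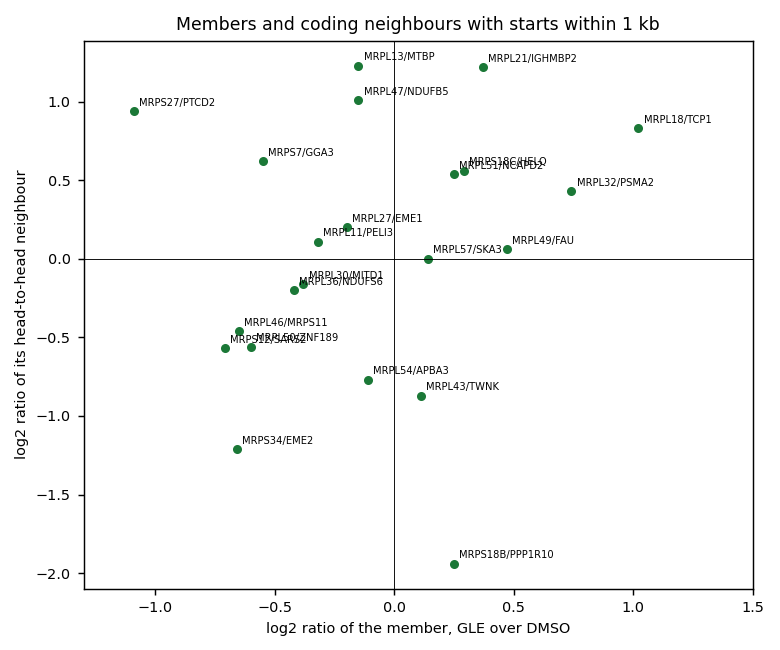
Log2 ratio of each member (x) and of its head-to-head coding neighbour (y) for the 22 pairs with both genes measured. Points in the upper right and lower left hold the 13 pairs on the same side of 1, with MRPL18 and TCP1 at the upper right and MRPS18B and PPP1R10 far below.

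Mitoribosomal proteins that carry other symbols stayed close to 1. DAP3, a GTP-binding protein of the small subunit first described as a mediator of cell death, had 1483 and 815 counts, a ratio of 0.898 (0.823 to 0.979). The other 4, PTCD3, CHCHD1, AURKAIP1 and GADD45GIP1, had ratios from 0.968 to 1.07 with intervals that included 1. Among the mitoribosomal proteins described in apoptosis, MRPS30 was thus higher and DAP3 a little lower, and the direction of MRPL41 depended on the GC trend.

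Scaled counts of the RNAs of the mitoribosome were higher in the GLE library, while those of its protein genes as a set were not. RNR1, the ribosomal RNA of the small subunit, had 138370 and 123346 counts, a ratio of 1.46 (1.45 to 1.47). RNR2, that of the large subunit, had 340461 and 354849, a ratio of 1.70 (1.70 to 1.71). Among the members only MRPL39, MRPL18, MRPS22, MRPS23 and MRPS30 had ratios above that of RNR2. TRNV, the valine transfer RNA that serves as a structural RNA of the human mitoribosome, had 212 and 742 counts, a ratio of 5.72 (4.90 to 6.69) and the highest of 14 measured mitochondrial transfer RNAs, of which 9 had intervals below 1. TRNV lies between RNR1 and RNR2 in the mitochondrial genome, and these counts do not separate mature RNAs from their shared precursor. The kit reads near the 3′ end of a transcript. Whether such counts follow the amount of mature ribosomal or transfer RNA was not tested.

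Factors that assemble the mitoribosome and modify its RNA spread about as widely as all measured genes, with an SD of the log2 ratio of 0.88 against 0.90. All 27 on the list were measured, with a median log2 ratio of -0.18, 7 intervals above 1 (25.9%) and 10 below (37.0%), near the shares of all genes. At least 2-fold lower were 6 (22.2%, where 10.5% of all genes were) and 2-fold higher 2 (7.41%, where 9.54% were). DDX28, a helicase of large subunit assembly, had 116 and 8 counts, 8.87-fold lower (4.36 to 21.0). RBFA, which matures the small subunit RNA, had 67 and 17, 2.41-fold lower (1.40 to 4.38), and the methyltransferase MRM1 had 50 and 12, 2.55-fold lower (1.34 to 5.26). TRMT61B (98 and 24), YBEY (40 and 8) and TRMT2B (38 and 11) were also past 2-fold lower, and METTL15 was 1.70-fold lower (1.12 to 2.64). METTL17, an assembly factor of the small subunit, had 258 and 316 counts, just past 2-fold higher (1.69 to 2.37), and MTERF3 had 24 and 30, 2.04-fold higher (1.15 to 3.65). The GTPases GTPBP10 (1.69, 1.17 to 2.44) and ERAL1 (1.51, 1.11 to 2.05) were higher as well. Most of the genes past 2-fold had few counts, and their intervals are wide.

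Translation factors were near the members, with a median of -0.11 over 15, 3 intervals above 1 and 5 below. MTFMT, which formylates the initiator methionine, was 2.27-fold higher (1.45 to 3.59), the elongation factor TSFM 1.77-fold (1.39 to 2.26) and the release factor MTRF1L 1.56-fold (1.16 to 2.11), and the release factor MTRF1 was 2.49-fold lower (1.37 to 4.84). The 16 genes of mitochondrial transcription and RNA handling had a median of 0.01 with 6 above (37.5%) and 5 below (31.2%). In that list TEFM, the elongation factor of the mitochondrial RNA polymerase, was 2.45-fold higher (1.58 to 3.85), MTERF1 2.18-fold (1.19 to 4.04), TFB2M 1.65-fold (1.20 to 2.27) and the helicase SUPV3L1 1.63-fold (1.26 to 2.12). HSD17B10 and PRORP, which work together in the RNase P of mitochondria, were 1.74-fold (1.44 to 2.12) and 2.99-fold lower (1.44 to 6.97).

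**Figure D5:**
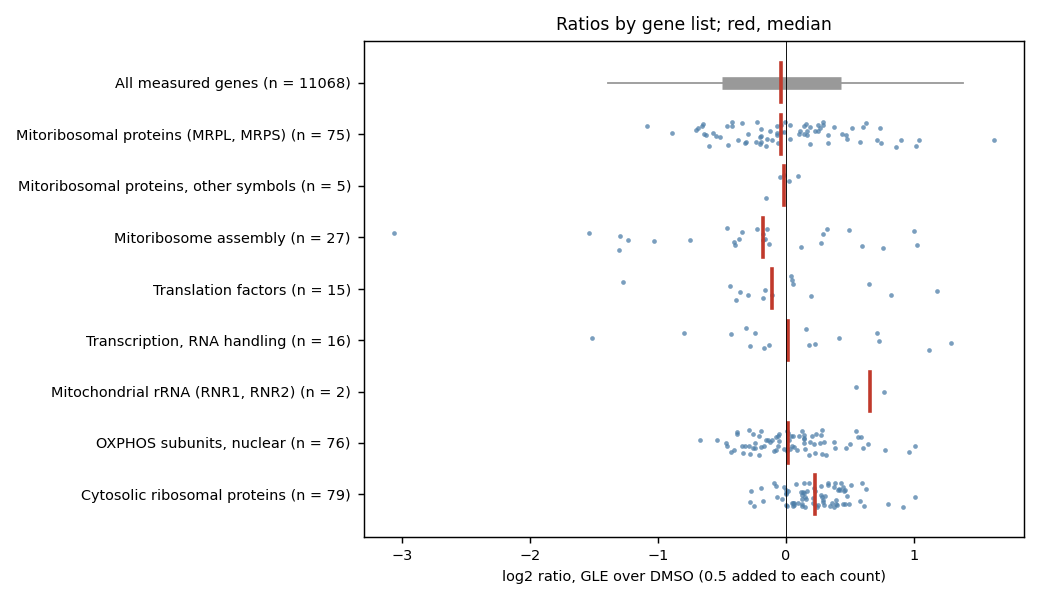
Log2 ratio of each measured gene by list, with medians in red. For all 11068 measured genes the thick grey bar spans the quartiles and the thin line the 5th to 95th percentiles. The members centre on -0.04 as all genes do, the cytosolic ribosomal proteins on 0.22, and the 27 assembly factors reach furthest to the left.

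Compared with the cytosolic ribosome, the mitoribosomal proteins were neither shifted nor tight. The 79 cytosolic ribosomal protein genes had a median log2 ratio of 0.22 with an SD over genes of 0.25. Of their intervals 60 lay above 1 (75.9%) and 7 below (8.86%), against 27.7% and 30.1% of all measured genes. The members' SD was 0.50. The 76 nuclear genes of oxidative phosphorylation subunits, whose mitochondrial partners the mitoribosome makes, had a median of 0.02 and an SD of 0.34. Of their intervals 24 lay above 1 (31.6%) and 24 below (31.6%). Cytosolic ribosomal proteins are counted far more deeply, at 9.24% and 10.3% of all counts, which makes their counting error smaller. The differences between these lists were not tested.

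Pseudogenes of the members were little counted. The files hold 3, with 48 and 57 counts in all. MRPS31P5 had 11 and 27 counts, a ratio of 4.01 (1.93 to 8.96), and its parent MRPS31 had 112 and 102, a ratio of 1.49 (1.13 to 1.96). Reads of near-identical copies can be split between them, so MRPS31, MRPL45 and MRPL42 are uncertain to that extent.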

How the data were processed

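Total RNA of 1 DMSO and 1 GLE library was made into Quant-Seq libraries, per the labels. The submitters' processing notes name fastp, STAR, HTSeq and GRCh38. No source used here states the annotation or the strand setting. The files hold raw counts per gene symbol, as deposited by the authors.

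Library sizes were scaled with TMM factors (edgeR 4.0.16; 1.03 and 0.972). Ratios came with exact Clopper-Pearson 95% intervals, and a log2 ratio was taken after adding 0.5 to both counts. Genes with at least 30 counts over both libraries were kept, and a 0 stood at 3 counts in a ratio. Every member could be named. In full were given the 8 highest and 8 lowest by the interval bound nearest to 1, the 5 most counted, members at 0, and some chosen for their role, and of the other lists genes past 1.5-fold with an interval that left out 1. The members, lists and settings were chosen with earlier results of these data known. Other genes given with values (such as MRPL9, MRPL22, MRPL38, MRPL44, MRPL45, MRPS31, TRNV and the neighbours) were chosen after their values were seen. The ratio calculation was also run on simulated Poisson counts that hold no GC trend and no variation between cultures. That run cannot show that the ratios hold for these libraries. Settings tried were total counts, DESeq2 1.42.0, upper-quartile and centred scaling, other minimums and added counts, thinning, a reduced library size and removal of a GC trend (lowess, span 0.3, GENCODE release 29). The software was R 4.3.3 and Python 3.11.15 with matplotlib 3.10.9, statsmodels 0.14.6 and SciPy 1.17.1. Protein features were not analysed here.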

Additional observations from a re-analysis of the deposited data

How the results depend on the processing

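No paired analysis was possible because each group has 1 library. The median log2 ratio of the members kept within 0.01 of that of all genes under each setting tried except removal of the GC trend, where it was 0.06 against 0.00. Scaling by total counts gave 1 member at least 2-fold higher in place of 3 and a summed ratio of 0.952. The summed ratio was 0.988 with upper-quartile factors and 1.03 when centred on genes with at least 100 counts, so its side of 1 is set by the scaling. With the GC trend removed, 5 members were at least 1.5-fold lower in place of 9, and MRPL41 changed sides, at 1.13. MRPL41 was the only member with an interval that left out 1 to change sides under any setting. Of the members whose interval included 1, 11 crossed it under at least 1 setting. Outside their own interval moved 5 members (MRPL34, MRPL41, MRPL55, MRPS26 and MRPS34), all with the GC trend removed. The causes were not tested. Depth limits the least counted members, with MRPL39 at 119, MRPL2 at 120 and MRPL28 at 121 counts in all. Without replicates, variation between cultures is not covered by any interval.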
